A study of Drosophila melanogaster with 2 samples.

Results

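Stat92E is the DNA-binding factor of the Drosophila JAK/STAT pathway, and 549 of its strongest binding peaks in embryos held no STAT site at their summit, while 172 other peaks selected at the same signal threshold did. These peaks were selected on 2 properties. They were among the 20% of peaks with the highest signal, out of 3601 on the chromosome arms in the list that the authors thresholded by IDR (the irreproducible discovery rate, a measure of how well peaks repeat between replicates). In addition, the summit window, which is the base marked as the peak's summit with 50 bp on either side, contained neither TTCNNNGAA nor the same sequence with 4 bases between TTC and GAA. Signal and the absence of a site at the summit are therefore properties by which the peaks were chosen, and neither is a result.

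Chromatin came from whole embryos 0 to 12 h old, pooled male and female, of the transgenic strain Stat92E-GFP, which stably expresses Stat92E with eGFP fused to its C terminus. Both biological replicates, which the labels number 1 and 3, carried the tagged protein and form 1 group. The labels' description names an anti-GFP antibody while the antibody label names Stat92E. Whole embryos mix all tissues of this period, so a peak cannot be placed in a cell type, and signal from few strongly bound cells cannot be told apart from signal from many weakly bound ones.

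In the JAK/STAT pathway, secreted Unpaired ligands bind the receptor Domeless, the kinase Hopscotch then phosphorylates Stat92E, and the STAT dimer enters the nucleus and binds palindromic sites whose outer letters are TTC and GAA. The pathway is used repeatedly in the embryo, among others in segmentation and in the forming gut and tracheal system. ChIP-seq fixes proteins to DNA and also recovers DNA that a factor reaches through other proteins. A peak therefore need not contain the factor's own site, and strong peaks at open promoters are a known feature of such data in many experiments.

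The sequences of the strongest siteless summits are shown first, because their composition is what the results below turn on. All are whole summit windows on the plus strand, read from RefSeq's Release 6 genome (dm6). They were taken in order of signal among windows with no annotated UTR base. An exception is CG5953 with a STAT site, between Lk6 and Socs36E in signal, which is not printed. In these 4, which held none of the 19 motifs searched, capitals mark the longest run of A and T. Their GC contents are 26.7%, 34.7%, 33.7% and 45.5% in the order printed. The last, of eEF1gamma, is richer in G and C than its surroundings 200 bp away (37.1%).
CG14100, chr3L:19590561-19590661: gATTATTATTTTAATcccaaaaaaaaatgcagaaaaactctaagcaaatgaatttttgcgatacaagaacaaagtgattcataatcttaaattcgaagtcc
Ugalt, chrX:2703853-2703953: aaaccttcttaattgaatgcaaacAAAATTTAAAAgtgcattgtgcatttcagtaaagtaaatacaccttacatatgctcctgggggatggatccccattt
CG9663, chr2L:3302123-3302223: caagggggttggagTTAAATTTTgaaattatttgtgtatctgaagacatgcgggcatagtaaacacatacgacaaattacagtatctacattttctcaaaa
eEF1gamma, chr3R:29214416-29214516: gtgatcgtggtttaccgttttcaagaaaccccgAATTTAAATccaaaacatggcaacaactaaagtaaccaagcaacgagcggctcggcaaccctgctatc

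Of the siteless summits with TATAAA, the letters of the TATA box, these are the 3 of highest signal with no UTR base, and capitals mark TATAAA on either strand. They were picked after their values were seen.
cbt, chr2L:481031-481131: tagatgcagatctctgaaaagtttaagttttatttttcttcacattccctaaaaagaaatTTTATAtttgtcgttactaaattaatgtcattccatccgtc
CG31668, chr2L:2202343-2202443: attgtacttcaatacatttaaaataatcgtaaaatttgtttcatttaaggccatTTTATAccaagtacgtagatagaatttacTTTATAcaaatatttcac
CG18549, chr3R:12449106-12449206: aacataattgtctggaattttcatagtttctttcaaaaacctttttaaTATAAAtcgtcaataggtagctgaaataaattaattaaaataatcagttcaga

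For contrast, capitals in the next windows mark DRE (TATCGATA, the element bound by DREF at many housekeeping promoters), core promoter motif 1 (GGTCACAC, bound by M1BP) and, in 2 strong peaks that did hold one, the STAT site. The contrast is in these letters and not always in composition, since the Lk6 window has a GC content of 30.7% against 46.5% at 200 bp.
EloB with DRE, chr3R:20579865-20579965: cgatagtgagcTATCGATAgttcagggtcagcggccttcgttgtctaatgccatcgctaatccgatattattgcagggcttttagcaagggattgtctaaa
slp2 with motif 1, chr2L:3832432-3832532: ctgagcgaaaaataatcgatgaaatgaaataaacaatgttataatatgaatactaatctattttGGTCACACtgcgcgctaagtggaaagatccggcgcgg
Lk6 with a STAT site, chr3R:11761010-11761110: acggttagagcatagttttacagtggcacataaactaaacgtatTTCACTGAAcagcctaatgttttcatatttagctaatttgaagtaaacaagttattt
Socs36E with a STAT site, chr2L:18151654-18151754: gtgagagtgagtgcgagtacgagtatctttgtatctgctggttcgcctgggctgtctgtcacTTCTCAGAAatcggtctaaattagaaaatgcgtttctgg

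The siteless strong summits lay in a narrow trough of A and T. Their median GC content was 32.7%, with quartiles of 26.7% and 42.6%, against 43.6% in the 172 strong peaks with a site and 40.6% in the 2519 weaker siteless peaks of the same list. In windows centred 200 bp from the summit the 3 sets were alike, with medians of 44.1%, 43.1% and 42.6%. GC content was below 35% in 320 of the 549 siteless strong summits, or 58.3% with a 95% exact binomial interval of 54.0 to 62.4%, beside 34.7% of all arm peaks. The share was 15.7% (10.6 to 22%) in the strong peaks with a site and 32.6% (30.8 to 34.5%) in the weaker siteless peaks, and neither interval overlapped the first. These intervals cover counting error over peaks only. Peaks of 1 list are not replicates, neighbouring peaks share sequence, and no test over the 2 samples was made.

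**Figure D1:**
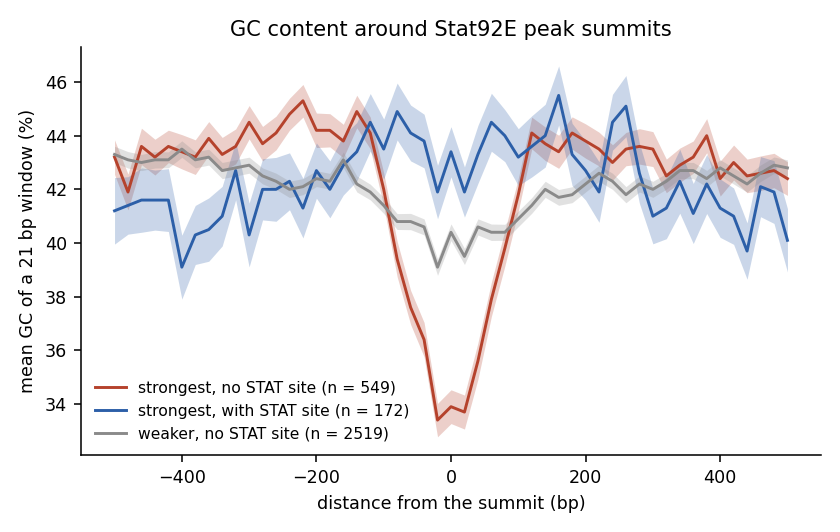
Mean GC content of 21 bp windows (vertical axis, %) by distance from the summit (bp) for the 549 siteless strong peaks, the 172 strong peaks with a site and the 2519 weaker siteless peaks, with bands of 1 standard error over peaks. The siteless strong peaks dipped to 33.9% at the summit and were back near 44% 200 bp away.

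The trough was present in most members. The summit window had a lower GC content than the windows 200 bp away in 406 of 549 siteless strong peaks, which is 74.0% (70.1 to 77.6%), while 55.7% of all arm peaks did. In 53.9% (49.6 to 58.1%) the summit was lower by at least 10 percentage points, beside 28.7% of all arm peaks. The share was 15.1% (10.1 to 21.4%) in strong peaks with a site and 26.1% (24.4 to 27.8%) in weaker siteless peaks. An unbroken run of A and T of 12 bases or more lay in 35% (31.0 to 39.1%) of the siteless strong windows, beside 22.6% of all arm peaks. It lay in 6.98% (3.66 to 11.9%) of the strong windows with a site and in 22.7% (21.1 to 24.4%) of the weaker siteless ones. At the other end, 47 siteless strong summits had a GC content of 50% or more, or 8.56% (6.36 to 11.2%), beside 15.8% of all arm peaks. The share was 15.1% (10.1 to 21.4%) in strong peaks with a site and 17.5% (16.0 to 19.0%) in the weaker siteless peaks. Soft-masked repeat sequence filled more than 50% of the window in 69 of 549 siteless strong peaks and in 4 of 172 with a site. It was not counted in the weaker siteless peaks or over all arm peaks, and its relation to the low GC content was not tested. No window of either set had a second exact copy on the chromosome arms.

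Both replicates gave this composition when the same rule was applied to each one's own list. Replicate 1 yielded 570 siteless peaks from as many strongest peaks as were taken from the thresholded list, and replicate 3 yielded 559. The median GC content was 33.7% in the siteless peaks of replicate 1 and 34.7% in those of replicate 3, while strong peaks with a site had 43.6% in each. A GC content below 35% occurred in 54.9% (50.7 to 59.1%) of the siteless peaks of replicate 1 and in 52.1% (47.8 to 56.3%) of those of replicate 3. The control library was not analysed here, and peak lists give no read depth.

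Among siteless peaks, stronger signal went with a lower GC content, which is given as a description because signal chose the members. Median GC content was 27.7% in the 70 siteless peaks ranked 1 to 100, 30.7% in the 197 that followed down to rank 360 and 36.6% in the other 282. Beyond the members it was 37.6% in the 612 siteless peaks of the next 20% of the list and between 40.6% and 41.6% in the 3 lower classes. Peaks with a site had medians between 40.6% and 44.6% in all 7 rank classes, with no such order. Among the 20 strongest siteless peaks, 19 had a GC content under 35%, and in all 20 the summit was lower than its surroundings.

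**Figure D2:**
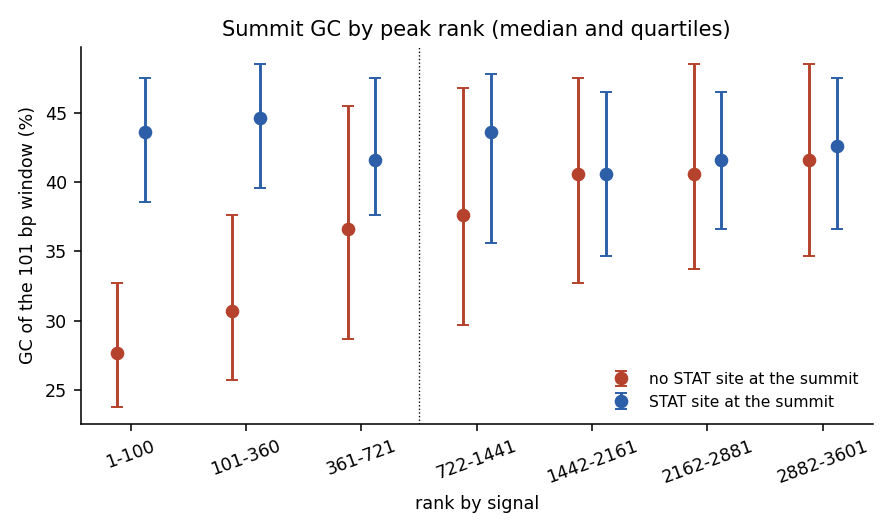
Median and quartiles (points and bars) of the GC content of the summit window (%) by class of rank, for peaks without and with a STAT site; the dotted line marks the end of the strongest 20%. The siteless medians rose from 27.7% to 41.6% down the list, and those of peaks with a site stayed between 40.6% and 44.6%.

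The strongest siteless peak lay 206 bp upstream of the transcription start site (TSS) of px (plexus, FBgn0003175), a gene of wing vein patterning. It spanned chr2R:22514112-22514519 in dm6 coordinates, had a signal of 1084.85 in the list made from both replicates, and ranked 1 in replicate 1 with 559.44 and 1 in replicate 3 with 524.64. Signal is the authors' peak score with no stated unit and is compared only within a list. The peak had no STAT site up to 250 bp from its summit, and its GC content was 27.7% at the summit and 56.4% at 200 bp.

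The next members in rank resembled px in having a summit poorer in G and C than its surroundings. The peak nearest to cbt (cabut, a zinc-finger transcription factor) had a signal of 831.89, with 439.10 in replicate 1 and 383.85 in replicate 3. It lay in an intron, and its GC content was 27.7% against 51% at 200 bp. CG31668 was nearest to an intergenic peak of signal 773.05, with 449.23 in replicate 1, 319.12 in replicate 3 and a GC content of 22.8% against 58.4%. CG18549, Art3 (an arginine methyltransferase) and Chro (Chromator, a chromodomain protein of polytene interbands) followed with promoter peaks of signal 745.56, 723.84 and 706.00. Their summits were less far below their surroundings than that of px, with GC contents of 22.8% against 34.7%, 27.7% against 36.6% and 32.7% against 36.6%. The Chro peak had 359.44 in replicate 1, where it ranked 11, and 350.90 in replicate 3, where it ranked 5.

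The remaining 14 of the 20 strongest were nearest to CG14100, CG11050, chif, ph-p, unc-119, CG11309, Fkbp14, cu, Ugalt, CG9147, aay, Trl, C1GalTA and CG9663, with signals from 647.99 down to 565.61. Several of these genes have known products. ph-p encodes a Polycomb group protein, Trl the GAGA factor, aay a phosphoserine phosphatase, and Ugalt and C1GalTA act in the transport and transfer of galactose. Of the 20 strongest, 15 lay within 1 kb of a TSS, 8 had a STAT site 51 to 250 bp from the summit, 5 held TATAAA, and 0 held DRE or motif 1. In both replicates 19 of them ranked among the 100 strongest. The exception was cu (curled), whose promoter peak had a signal of 576.48 and ranked 51 in replicate 3, and which had no overlapping peak in the list of replicate 1.

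At the threshold, the weakest members were the peaks nearest to mib1 (216.43), Tcs3 (216.41) and CG11964 (216.36), and the strongest siteless peaks left out were those nearest to cno (216.11), Dref (216.10) and kibra (216.09). The quartiles of the members' signal were 237, 271 and 332, so most members lay well below the leaders and close to the threshold.

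Most members were also strong in each replicate. From each replicate's list, as many strongest peaks were taken as the strongest 20% of the thresholded list held, with and without a site. In both replicates, 342 of the 549 members overlapped a peak among these, or 62.3% (58.1 to 66.4%). The share was 14.6% of all arm peaks and 70.3% (62.9 to 77.1%) of strong peaks with a site. Replicate signal enters the signal that chose the members, so these shares describe the list and test nothing. The replicate peak was also matched by another peak of the list for 97 members in replicate 1 and 98 in replicate 3, in 12 cases each by a strong peak with a site. Any overlapping peak in both replicate lists, each 30000 peaks long, was found for 544 members. The 5 others were nearest to cu, CG31612, Elp5, Lrch and SIFaR: the first 3 had no peak in replicate 1 and the last 2 none in replicate 3.

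**Figure D3:**
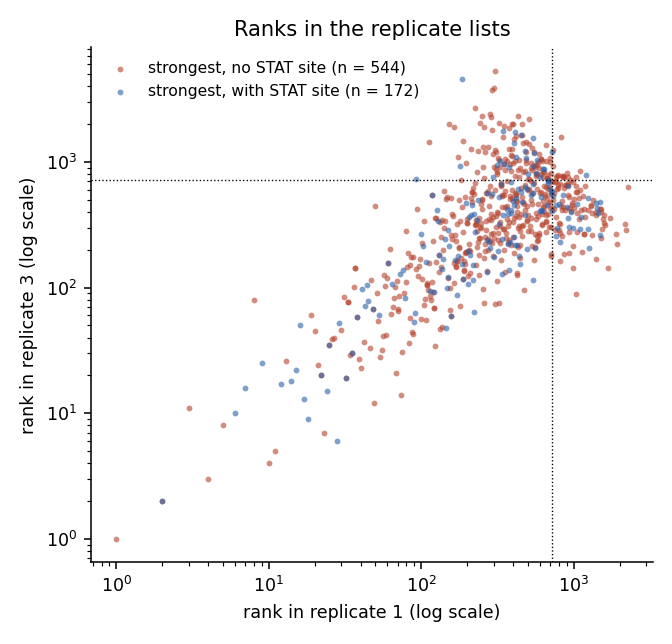
Rank of the overlapping peak in replicate 3 against that in replicate 1 (both log scales) for the 544 siteless strong peaks and the 172 strong peaks with a site that had one in both lists; dotted lines mark the rank down to which members were taken. Siteless peaks and peaks with a site intermingle.

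Most siteless strong peaks were promoter peaks, as was most of the list. The summit lay within 1 kb of a protein-coding TSS in 352 of 549, or 64.1% (59.9 to 68.1%), beside 65.5% of all arm peaks. The share was 41.3% (33.8 to 49.0%) in the strong peaks with a site and 70.7% (68.8 to 72.4%) in the weaker siteless peaks, and neither of these intervals overlapped that of the members. In the replicates' own lists, the siteless peaks gave 63.7% and 62.3% and the peaks with a site 47.7% and 38.9%. Introns held 21.3% of the members, beside 20.7% of all arm peaks, and intergenic sequence 13.8%, beside 12.9%. The members' median distance to a TSS was 294 bp, between 137 bp for weaker siteless peaks and 1734 bp for strong peaks with a site. A TSS on each strand within 1 kb, as at a pair of diverging genes, was found for 22.8% (19.3 to 26.5%) of the members, beside 24.9% of all arm peaks.

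Within promoters, the members' summits lay further upstream than those of weaker peaks. The summit was upstream of the nearest TSS in 259 of 352 promoter members, or 73.6% (68.6 to 78.1%), beside 61.2% of all promoter peaks on the arms. The share was 60.2% (57.9 to 62.5%) in weaker siteless promoter peaks and 50.7% (38.6 to 62.8%) in strong promoter peaks with a site. The median position was 109 bp upstream (-109 bp) in the members, -27 bp in the weaker siteless peaks and -3 bp in the strong peaks with a site. Between 50 and 250 bp upstream lay 42.9% (37.7 to 48.3%) of the promoter members, beside 32.7% of all promoter peaks on the arms, and 31.7% (29.5 to 33.9%) of the weaker siteless promoter peaks. In the replicates' own lists, 74.9% and 71.8% of siteless promoter summits were upstream.

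**Figure D4:**
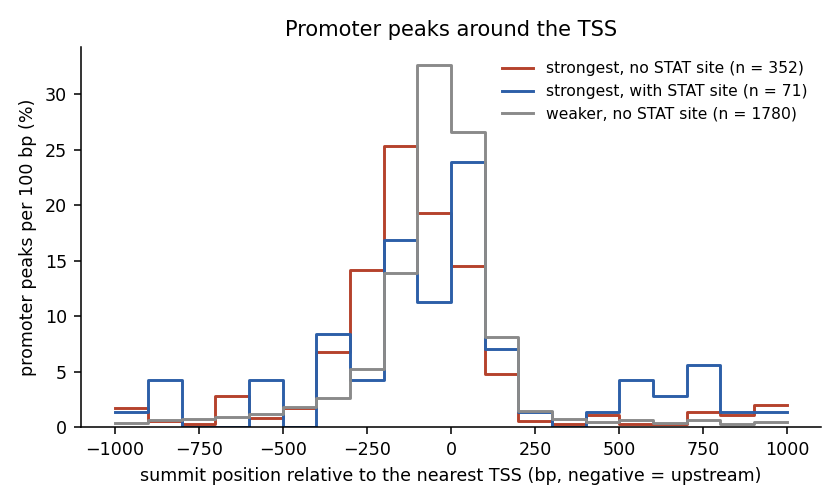
Share of promoter peaks (%) in 100 bp bins of summit position relative to the nearest TSS (bp, negative upstream) for the 3 sets. The 352 promoter members were most frequent 200 to 100 bp upstream (25.3%), and the 1780 weaker siteless promoter peaks in the last 100 bp before the TSS (32.6%).

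Position and composition went together among the members. Of the 139 promoter members with a GC content under 30%, 121 had their summit upstream of the TSS, which is 87.1% (80.3 to 92.1%), and their median position was -150 bp. Of the 35 promoter members at 50% GC or more, 21 did, or 60.0% (42.1 to 76.1%), with a median of -16 bp. The trough was not a property of promoters alone, since the median GC content was 32.7% in promoter members, 31.7% in those in introns and 31.2% in intergenic ones. The strong peaks with a site had medians of 43.6%, 42.6% and 43.6% in the same places.

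Apart from the 4-base word TTCC, the TATA box letters TATAAA were the most frequent of the 19 motifs in the members. They lay in 118 of 549 summit windows, or 21.5% (18.1 to 25.2%), beside 14.5% of all arm peaks, and in 5.81% (2.82 to 10.4%) of strong peaks with a site and 14.5% (13.1 to 15.9%) of weaker siteless peaks. The replicates' own lists gave 21.9% and 17.7% of siteless peaks, and the second of these lies below the interval of the list from both replicates. The share was 21.3% (17.1 to 26%) in promoter members and 21.8% (16.3 to 28.3%) in the others. Of the 75 promoter members with TATAAA, 4 held it 20 to 40 bp upstream of the nearest TSS on the same strand. The letters alone therefore do not mark a TATA promoter. At equal base composition the members and the weaker peaks had close shares. Under 30% GC, 36.5% (30.1 to 43.2%) of the members and 35.5% (31.3 to 39.9%) of the weaker siteless peaks held TATAAA, and between 30 and 35% GC the shares were 22.4% (14.6 to 32.0%) and 23.0% (18.4 to 28.0%).

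The members were poorer in DRE than the weaker siteless peaks, with shares close to those of the strong peaks with a site. The 8-base element occurred in 5 of 549 windows, or 0.911% (0.296 to 2.11%), beside 2.89% of all arm peaks and 3.69% (2.99 to 4.50%) of weaker siteless peaks. Its 7-base core ATCGATA occurred in 2.91% (1.67 to 4.69%) of the members, beside 6.33% of all arm peaks, and 7.82% (6.80 to 8.94%) of the weaker siteless peaks. The strong peaks with a site had 1.16% (0.141 to 4.14%) for DRE and 2.91% (0.95 to 6.65%) for the core. The low share was thus not particular to the siteless peaks. The members with DRE were nearest to EloB (Elongin B, signal 295.41), RpL19 (260.31), Abl (a tyrosine kinase, 238.17), Wdr62 (226.65) and CG9175 (222.79); the last 2 are named after their values were seen. The replicates' own lists held DRE in 1.75% (0.844 to 3.20%) and 1.43% (0.620 to 2.80%) of siteless peaks. Composition moved with this low share, and its part in it was not tested. DRE was in 0 of 222 members under 30% GC (upper limit of the interval 1.65%) and in 1.79% of the weaker siteless peaks of that class. In the classes between, it was in 0 of 98 members and 4.72% (2.66 to 7.66%) of the weaker siteless peaks from 30 to 35% GC, in 0 of 60 and 5.19% (3.20 to 7.91%) from 35 to 40% GC, and in 1 of 64 and 5.01% (3.20 to 7.42%) from 40 to 45% GC. The intervals of the members reached up to 3.69%, 5.96% and 8.40% in these classes and overlapped those of the weaker peaks. At 45% GC or more the shares were 3.81% (1.05 to 9.47%) and 3.05% (2 to 4.43%).

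Motif 1 occurred in 14 members, 2.55% (1.40 to 4.24%), beside 3.03% of all arm peaks. The strongest were nearest to slp2 (a forkhead transcription factor of segmentation, signal 394.87), Meltrin (a metalloprotease, 337.28) and Frl (a formin, 306.61). GAGAGAG, the repeat bound by the GAGA factor, occurred in 11 members, 2% (1 to 3.56%), beside 3.11% of all arm peaks. The E-box CAGCTG occurred in 2.73% (1.54 to 4.47%) of the members, beside 5.39% of all arm peaks, and 5.99% (5.10 to 6.99%) of weaker siteless peaks, intervals that did not overlap. TGATAA, the letters of GATA factors, occurred in 8.74% (6.52 to 11.4%) of the members, beside 7.61% of all arm peaks, with px, CG11050 and aay the strongest, and in 7.38% (6.39 to 8.48%) of the weaker siteless peaks. CAGGTAG, the site of the early embryonic factor Zelda, occurred in 4 members, 0.729% (0.199 to 1.85%), beside 0.555% of all arm peaks. No motif of the list, TTCC included, was present in 150 members, or 27.3%, whose median GC content was 33.7%. That share was not counted in the other sets or over all arm peaks. All motifs were searched on both strands, DRE contains its core, and a match describes letters and not binding.

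**Figure D5:**
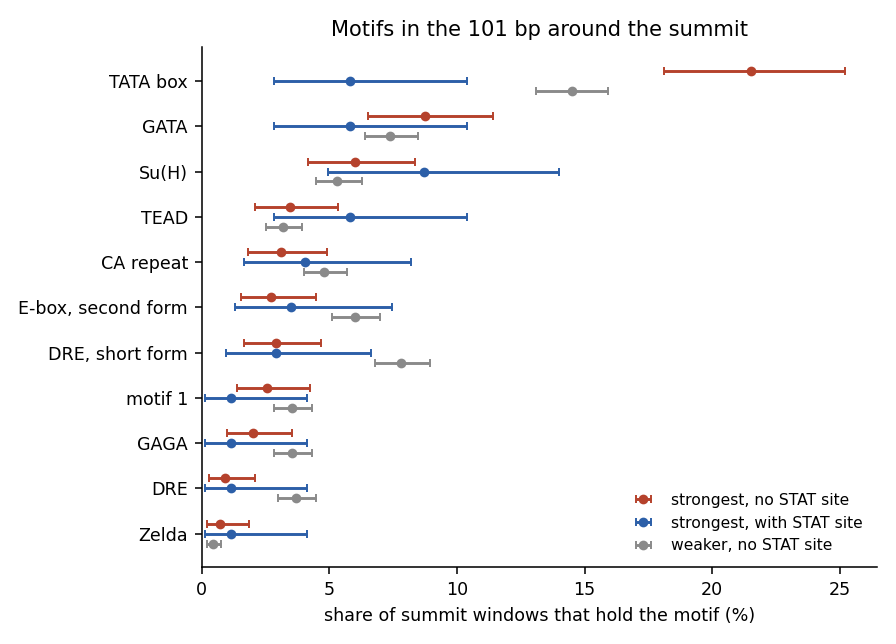
Share of summit windows (%) that hold each motif, with 95% exact binomial intervals, for the 3 sets. The label TATA box stands for the letters TATAAA anywhere in the window. Their interval in the siteless strong peaks (18.1 to 25.2%) lies above both others. The DRE interval of the siteless strong peaks (0.296 to 2.11%) lies below that of weaker siteless peaks (2.99 to 4.50%). That of strong peaks with a site (0.141 to 4.14%) overlaps both.

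In a count of all 7-base words, those of A and T led. Of the 50 words present in most members, 46 consisted of A and T alone. AAATTAA, the most frequent, was in 16.6% (13.6 to 20%) of the members, 5.23% of strong peaks with a site and 8.34% (7.29 to 9.49%) of weaker siteless peaks. Among words with a G or C, those in most members were AAACAAA (10.2%), AAATGTA (10%), AAAGAAA (9.47%), AATTTGT (9.47%) and AACAAAA (8.93%). AAACAAA was as frequent in weaker siteless peaks, with 10.4%. The word with a G or C that exceeded its share in weaker siteless peaks by most was ATTTAAG, in 42 members or 7.65% (5.57 to 10.2%) against 2.62% (2.03 to 3.32%), with 6.32% and 7.33% in the replicates' own lists. It was singled out for that difference, which is therefore a description.

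The stretch beside the summit, which the choice of members did not read, held a STAT site about as often in the members as in the other sets. A site lay wholly between 51 and 250 bp from the summit in 148 of 549 members, or 27.0% (23.3 to 30.9%), beside 26.7% of all arm peaks, 24.4% (18.2 to 31.5%) of strong peaks with a site at the summit and 26.4% (24.7 to 28.2%) of weaker siteless peaks. The replicates' own lists gave 26.7% and 29.5%. In the members, sites occurred at 0.729 to 0.911 per kb in the 4 bins from 51 to 250 bp, at 0.501 to 0.592 per kb in the 3 bins from there to 500 bp, and at 0.670 and 0.743 per kb in the 2 bins beyond, which ended 1000 bp away. The weaker siteless peaks had 0.687 to 0.961 per kb in the first 4 of these bins and 0.595 to 0.613 per kb in the next 3. Within 50 bp on either side of the summit, strong peaks with a site held 11.6 per kb, which follows from how they were chosen. The nearest site was within 100 bp of the summit in 53 members, within 500 bp in 249 and within 2000 bp in 503. These distances were not counted in the other sets or over all arm peaks, so they show nothing particular to the members. The name siteless therefore holds for the summit window alone.

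Sites with 1 changed letter among the 6 outer bases were present in the summit window of 357 members, or 65.0% (60.9 to 69.0%), beside 63.2% of all arm peaks. The shares were 86.0% (80.0 to 90.9%) in strong peaks with a site and 58.2% (56.2 to 60.1%) in weaker siteless peaks. A STAT site can itself supply such a word when read with the other spacer. The 86.0% is therefore not independent of how those peaks were chosen. In windows 300 bp from the summit, 54.2% of the members' windows and 57.6% of the weaker peaks' windows held one. Because such words need A and T, shares were also taken by composition. They were 63.5% (56.8 to 69.9%) and 68.3% (64.0 to 72.3%) under 30% GC, 70.3% (62.5 to 77.3%) and 63.2% (59.5 to 66.7%) from 30 to 40% GC, and 63.1% (53.9 to 71.7%) and 55.8% (52.4 to 59.1%) from 40 to 50% GC, each time with the members first. At 50% GC or more, the members had 59.6% (44.3 to 73.6%) and the weaker siteless peaks 43.5% (38.9 to 48.3%). The intervals overlapped in each of these classes. TTCC, the outer letters of one arm of a STAT site with its inner C, was in 49.9% of the members, beside 54.2% of all arm peaks. It was in 49.5% of the weaker siteless peaks, against 87.8% of strong peaks with a site, where the site itself supplies part of it.

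Some members lay beside a peak that did hold a site. Another summit of the list with a STAT site lay within 5000 bp of 85 members, or 15.5% (12.6 to 18.8%), and of 10% (8.90 to 11.3%) of weaker siteless peaks. Within 500 bp the shares were 3.28% (1.95 to 5.13%) and 1.71% (1.24 to 2.29%). No such share was taken over all arm peaks. In 5 members the deposited interval was shared with such a summit.

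The 549 peaks were nearest to 473 genes, which is 3.39% of the 13945 protein-coding genes on the arms. Nearness names a neighbour and does not show regulation, and long genes with wide surroundings collect more peaks. There were 410 genes with 1 member, 52 with 2, 9 with 3 and 2 with 4, and 49 of the 473 were also among the 158 genes nearest to a strong peak with a site. Raf, the kinase between Ras and MAP kinase, and tara (taranis), a nuclear regulator, had 4 each. Those of Raf had signals of 224.9 to 319.5 over 7802 bp, and those of tara 314.2 to 563.9 over 20264 bp with GC contents from 21.8% to 62.4%. The genes with 3 were CG13321, CG4004, CG43245, Hr3 (a nuclear receptor), Ids, ImpL2 (a secreted insulin-binding protein), InR (the insulin receptor), aop (an ETS-domain repressor) and sbb.

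Some peak of the thresholded list was nearest to 8 of 13 genes of the JAK/STAT pathway itself. Of these 13, dome, Stat92E and Socs36E had a siteless strong peak (23.1%), beside 3.39% of all protein-coding genes. For any peak of the thresholded list, no share of all protein-coding genes was taken. In the lists of general functions, signalling and pattern below, it ranged from 8 of 73 mitochondrial to 58 of 92 cytoplasmic ribosomal protein genes. The dome peak, at the promoter of the receptor gene 70 bp downstream of a TSS, had a signal of 524.90, a GC content of 57.4% and a STAT site in its surroundings. Its deposited interval is the same as that of a dome summit with a site, so its values in the replicates, 531.56 and 444.85 with rank 2 in each, belong to that shared interval. The Stat92E peak lay in an intron 7834 bp downstream of a TSS and had a signal of 268.16, with 119.87 in replicate 1 and 156.50 in replicate 3. The peak of Socs36E, a feedback inhibitor, had 244.39, with 179.45 in replicate 1 at rank 242 and 71.06 in replicate 3 at rank 2043. The Socs36E peak was thus far higher in the ranking of replicate 1. Socs36E also had the promoter peak with a STAT site printed above.

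Some peak of the thresholded list was nearest to 22 of 31 genes described as targets of the pathway, again with no share of all protein-coding genes taken. Of these 31, 8 had a siteless strong peak (25.8%), beside 3.39% of all protein-coding genes. Besides dome, Stat92E and Socs36E they were ImpL2, Diap1, fj, chinmo and slbo. The strongest ImpL2 peak had a signal of 416.26 in an intron, with 263.74 in replicate 1 and 164.15 in replicate 3, and held TATAAA. Diap1, the inhibitor of caspases, had a peak of 352.62 in an intron, with 217.41 and 158.61 in the replicates. As at dome, each of these ImpL2 and Diap1 intervals also held a summit with a STAT site, of signal 235.91 and 322.44, so the replicate values belong to both summits of the interval. The peaks of fj (four-jointed, a Golgi kinase), chinmo (a BTB zinc-finger factor) and slbo (a C/EBP factor of border cells) were intergenic, between 6333 and 12541 bp from the TSS, with signals of 285.23, 256.02 and 236.04. All 8 genes had a replicate signal in both lists, and 8 of the 31 genes also were nearest to a strong peak with a site.

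Genes of growth and general functions were also counted, beside the 3.39% of all genes given above. A siteless strong peak was nearest to 10 of 92 cytoplasmic ribosomal protein genes (10.9%), each time at the promoter, with RpL14 (289.78), RpL23A (287.71), RpL3 (287.03) and RpL30 (273.14) the strongest. It was nearest to 3 of 73 mitochondrial ribosomal protein genes (4.11%), of which mRpL41 (383.63) led, to 3 of 52 translation factor genes (5.77%), to 2 of 87 genes of the respiratory chain (2.30%), and to 0 of 48 proteasome genes. It was nearest to 1 of 26 heat shock genes (3.85%), Hsp27 (325.59), and to 1 of 27 cell cycle genes (3.7%), CycB (224.17).

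Regulators of chromatin, signalling and pattern were also among the neighbours, again counted beside the 3.39% of all genes. Of 17 insulator and promoter factor genes, 4 had a member (23.5%), which were Chro, Trl (569.59), Cp190 (343.30) and mod(mdg4) (228.25). Raf, described above with signals up to 319.5, was not in the list of EGFR, Ras and Notch pathway genes that was counted. Of the 31 genes counted, 9 had one (29%), led by neur (a ubiquitin ligase of Notch signalling, 340.05), aop (329.86), S (Star, which helps to process EGFR ligands, 314.83) and aos (argos, a secreted inhibitor of EGFR, 306.81). All 4 of these peaks lay in introns. Of 41 patterning genes 5 had one (12.2%), with Doc3 (a T-box factor, 434.82), slp2 (394.87), ptc (the Hedgehog receptor, 313.80) and slp1 (252.15) the strongest. The genes of these lists differ in length and spacing, and no test of the lists was made.

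The X chromosome carried 70 members, or 12.8%, beside 12.2% of all arm peaks. A tRNA gene lay within 500 bp of 8 members, or 1.46%, beside 1.64% of all arm peaks.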

How the data were processed

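Stat92E ChIP-seq was analysed from 2 replicates of 1 group. Per the labels, chromatin was sonicated to 200 to 800 bp. The authors called peaks on dm6, per the deposited file lists, for each replicate against a control shared by both, for both together, and after IDR thresholding. The aligner, the caller and the IDR cutoff were not given in the sources used here. Signal, as deposited, is a score with no stated unit. The deposited -log10 q-value took 1 value in all 3603 thresholded peaks and was not used to rank them, and 2 mitochondrial peaks were left out. The deposited summit offset gave the summit. Replicate values are those of the strongest replicate peak overlapping by at least 1 bp.

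Python 3.11.15, pandas 2.3.3 and scipy 1.17.1 were used, with Ensembl gene models BDGP 6.54.115. A promoter lay within 1 kb of a protein-coding TSS. Shares carry 95% exact binomial (Clopper-Pearson) intervals, which cover counting error only. No tests were made. Site search and intervals were tested on simulated data.

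The members and lists were chosen with earlier results of these data known. Named peaks were the 20 strongest, those at JAK/STAT genes, up to 3 per motif discussed, genes with 3 or more members, up to 4 per other gene list, the threshold's neighbours and the 5 commonest words with G or C. Alternatives varied the window, spacers, number of peaks, replicates, interval sharing, promoter distance, annotation, motif length and overlap. The labels do not say whether the replicates were separate embryo collections.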

Additional observations from a re-analysis of the deposited data

How the results depend on the processing

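Of 92 recomputed values, 71 stayed within the interval of the reported value or, for counts, within 1.5 times. Taking the strongest 10% or 40% of peaks in place of 20% gave 267 and 1161 siteless peaks, median GC contents of 29.7% and 35.6%, and shares among the strongest of both replicates of 93.6% and 31.8%; with 40% the median TSS distance was 230 bp. The share found in both replicates was 57.7% with summits within 100 bp and 43.9% with 50% reciprocal overlap. From 1 replicate's own list the median GC was 33.7 to 34.7% and the TATAAA share 17.7 to 21.9%. The flanking STAT site share was 21.5% when the site was searched 100 bp either side of the summit and 43.7% for flanks of 51 to 500 bp. The promoter share was 56.8% within 500 bp and 71.2% with the TSS of all annotated genes, where the median distance was 237 bp. The DRE share was 2.91% for its 7-base core and 2.19% within 100 bp of the summit, the motif 1 share 5.83% for a 6-base core and 4.37% within 100 bp, and the TATAAA share 35.2% within 100 bp. The GC and TATAAA alternatives were chosen after seeing the data. These shifts came with another number of peaks, a wider or narrower search, other definitions or a single replicate. Their causes were not tested. The median GC of siteless peaks was below that of peaks with a site in all 10 settings compared. No paired analysis was possible because there is 1 group. Read depth is unknown, so no count-based precision of single signals can be given.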
